A study of Mus musculus with 10 samples.

Results

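Mgst1, Anxa1, Cd93, Gm9733, Sirpb1c and Serpinb2 are genes of the monocyte lineage, or of macrophages derived from it, at which the deposited H3K27ac lists hold regions for MDM brain macrophages. Regions were chosen by position: a row of either list counted when its midpoint lay inside one of the 6 genes, or when one of them was the protein-coding gene with the nearest end within 100 kb. This gave 11 of 1320 regions, all 11 from the MDM list of 428 and 0 from the YSM list of 892. The genes were themselves chosen from these lists because they had MDM regions close to an end, so the counts and distances below describe them and carry no test. An assigned MDM region was present at 0.918% of the 21887 protein-coding genes and an assigned YSM region at 1.82%.

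The libraries came from brain parenchymal macrophages of mice that carry Ms4a3Cre and the reporter R26-tdTomato, profiled by CUT&Tag, in which an antibody guides a transposase to the marked chromatin. All libraries, MDM and YSM alike, share that genotype and the treatment label DR-3x, whose meaning is not given; age is not given in the sources used here. There were 4 MDM and 4 YSM libraries for H3K27ac, MDM standing for monocyte-derived macrophages, whereas YSM is not spelled out. How the cells of the 2 groups were separated, and whether libraries came from separate animals, is not stated. As background, Cre driven by Ms4a3 marks descendants of granulocyte-monocyte progenitors, which also include granulocytes, so the reporter alone does not single out monocytes. The lists hold no value per library, so no level, fold change, depth or replicate error can be given for any region, and neither the labelled cell type nor purity can be checked by marker levels. A list was taken to hold regions with more of the mark in the group it is named for, and a gene with no region below is one to which neither list assigned any.

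H3K27ac is an acetyl mark on histone H3 found at active promoters and enhancers. Monocytes that settle in the brain take on many features of microglia, the resident macrophages seeded by embryonic progenitors, and yet are known to differ from them in part of their regulatory landscape. The genes described here have different roles. Mgst1 encodes a membrane-bound glutathione transferase that detoxifies lipid peroxides. Anxa1 encodes annexin A1, a phospholipid-binding protein that dampens inflammation through formyl peptide receptors. Cd93 is a C-type lectin-like surface glycoprotein of myeloid, endothelial and early blood-forming cells. Sirpb1c and Gm9733 belong to the SIRP-beta family of receptors, whose classical members signal through the adaptor DAP12, encoded by Tyrobp. Serpinb2 encodes plasminogen activator inhibitor 2, an inhibitor of urokinase that activated monocytes and macrophages make in large amounts.

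The promoter sequences of Mgst1, Anxa1 and Serpinb2 are shown first. The listed starts of Mgst1 and Anxa1 lay under an MDM region, and those of Serpinb2 did not. This is a difference in the position of the regions and is not read from the sequences. Sequences and starts are those of RefSeq on GRCm38.p6, the assembly called mm10 in the labels. In the set of promoter sequences used, 4 of the 6 genes have an entry (Mgst1 and Serpinb2 with 2 starts each). Cd93 and Gm9733 have none in that set, although both are annotated as genes. Each line gives the 250 bases before the first listed start, 5′ to 3′ on the gene's strand, and capitals mark exact matches to any of 15 short motifs named further on. The stretches are chr6:138140277-138140526 (plus strand), chr19:20390672-20390921 (minus strand) and chr1:107511173-107511422 (plus strand).
Mgst1: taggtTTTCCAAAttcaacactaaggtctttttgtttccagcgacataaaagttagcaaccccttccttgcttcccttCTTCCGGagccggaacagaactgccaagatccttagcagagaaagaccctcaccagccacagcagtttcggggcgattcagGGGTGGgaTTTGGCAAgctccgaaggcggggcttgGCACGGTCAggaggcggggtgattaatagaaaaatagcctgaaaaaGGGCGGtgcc
Anxa1: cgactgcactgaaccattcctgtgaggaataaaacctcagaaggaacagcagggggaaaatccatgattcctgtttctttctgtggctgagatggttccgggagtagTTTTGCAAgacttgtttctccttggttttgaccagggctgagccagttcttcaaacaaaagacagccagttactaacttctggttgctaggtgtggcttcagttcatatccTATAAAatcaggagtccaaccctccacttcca
Serpinb2: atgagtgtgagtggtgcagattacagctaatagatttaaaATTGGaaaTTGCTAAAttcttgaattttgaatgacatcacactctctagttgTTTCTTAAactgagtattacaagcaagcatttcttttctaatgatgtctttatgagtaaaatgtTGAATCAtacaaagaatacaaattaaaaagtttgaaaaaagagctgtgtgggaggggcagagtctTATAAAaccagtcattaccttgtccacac

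Of the 4 genes with a listed start, Mgst1, Anxa1 and Sirpb1c had an MDM region centred within 1 kb of it, and Serpinb2 did not. At Mgst1 the 2 regions straddled the first listed start. The region chr6:138139320-138141320 was centred 207 bp upstream of that start, outside the gene, and chr6:138140421-138142421 was centred 894 bp downstream of it, inside the gene. The regions overlapped by 900 bp, so they form 1 group and are not independent. The second listed start of Mgst1 lies 1060 bp downstream of the first, and the second region was centred 166 bp upstream of it. Both regions overlapped the promoter window of the first start, taken as 250 bases before to 50 after it.

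Anxa1 had a single region, chr19:20389663-20391663, whose midpoint lay 8 bp inside the gene, downstream of the listed start at its upper end. This was the smallest distance to a gene end among the 201 genes with an MDM region. Sirpb1c also had a single region, chr3:15847397-15849397, centred 133 bp inside the upper end of the gene and 90 bp downstream of its listed start. Every region is 2001 bp long, so at Mgst1, Anxa1 and Sirpb1c a region covered the listed start.

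At Cd93 the region chr2:148442550-148444550 was centred 15 bp beyond the upper end of the gene. At Gm9733 the regions chr3:15330675-15332675 and chr3:15331281-15333281 were centred 635 and 29 bp inside the upper end, and they overlapped by 1395 bp. These 2 genes have no listed start in the table used, so their regions are described by gene end only.

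**Figure D1:**
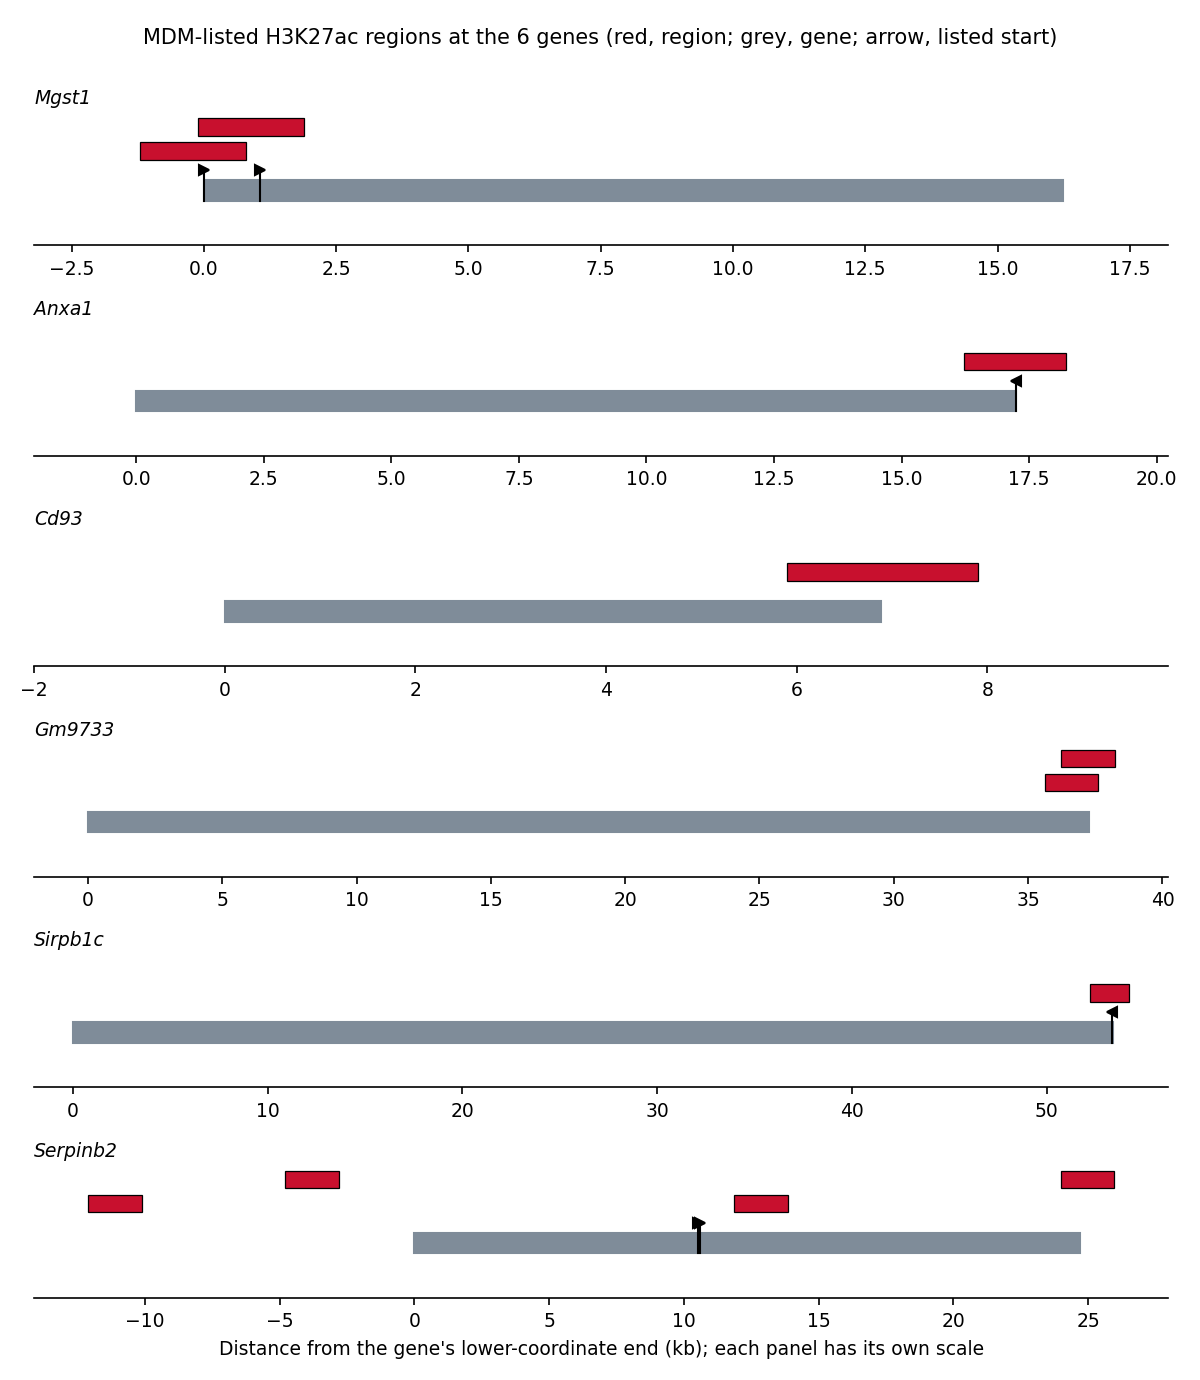
Position of the 11 MDM regions (red boxes, 2001 bp each) at the 6 genes (grey bars), in kb from the end of each gene with the lower coordinate; arrows are listed starts and point in the direction of transcription, and the height of a box has no meaning. Regions sit on a gene end in the first 5 panels, while the 4 of Serpinb2 are spread from 11.1 kb below the gene to its upper end.

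Serpinb2 carried the most regions, 4, none overlapping another. Of the 201 genes with an MDM region, 2.99% had 4 or more. In order of position they were chr1:107488788-107490788 and chr1:107496101-107498101, centred 11.1 and 3.79 kb below the gene, chr1:107512749-107514749 inside it, and chr1:107524868-107526868, centred 0.268 kb beyond its upper end. The gaps between them ran from 5.31 to 14.65 kb. Serpinb2 is transcribed towards higher coordinates from listed starts at 107511423 and 107511510, 10.5 kb inside the annotated lower end of the gene. The region nearest to a gene end therefore lay at the 3′ end, 14.4 kb downstream of the second start. The region nearest to a start, the one inside the gene, was centred 2.24 kb downstream of the second start, with its edge 1.24 kb away. No MDM region overlapped either promoter window of Serpinb2. The term promoter-near thus held for 3 of the 4 genes that could be checked, and Serpinb2 was near an end that is not its start. The region at the 3′ end of Serpinb2 faced the next gene, Serpinb10, with its edge 2.13 kb from the lower end of that gene.

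Set against the MDM list as a whole, the 6 genes had a median of 0.081 kb from the nearest gene end to the nearest midpoint, and all 201 genes with an MDM region had 12.986 kb. A region within 1 kb of an end was present at 6 of the 6 genes, against 18.4% of the 201 genes, which is how they were chosen. Counted as regions, 8 of the 11 lay within 1 kb of an end, against 10.5% of MDM and 10.1% of YSM regions. The midpoint was inside the gene in 6 of the 11, and inside a protein-coding gene in 50.5% of MDM regions. The 3 regions beyond 1 kb were all at Serpinb2, the farthest 11.9 kb from an end, so none came near the limit of 100 kb. Some MDM regions lay within 100 kb of one of the 6 genes and were left out because a neighbour was nearer. They were the 2 of Serpinb7, centred 53.4 and 98.5 kb below Serpinb2, and the 2 of Thbd, centred 28.5 and 29.0 kb below Cd93. After overlapping regions were joined, the 11 made 9 groups, 4 of them at Serpinb2.

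**Figure D2:**
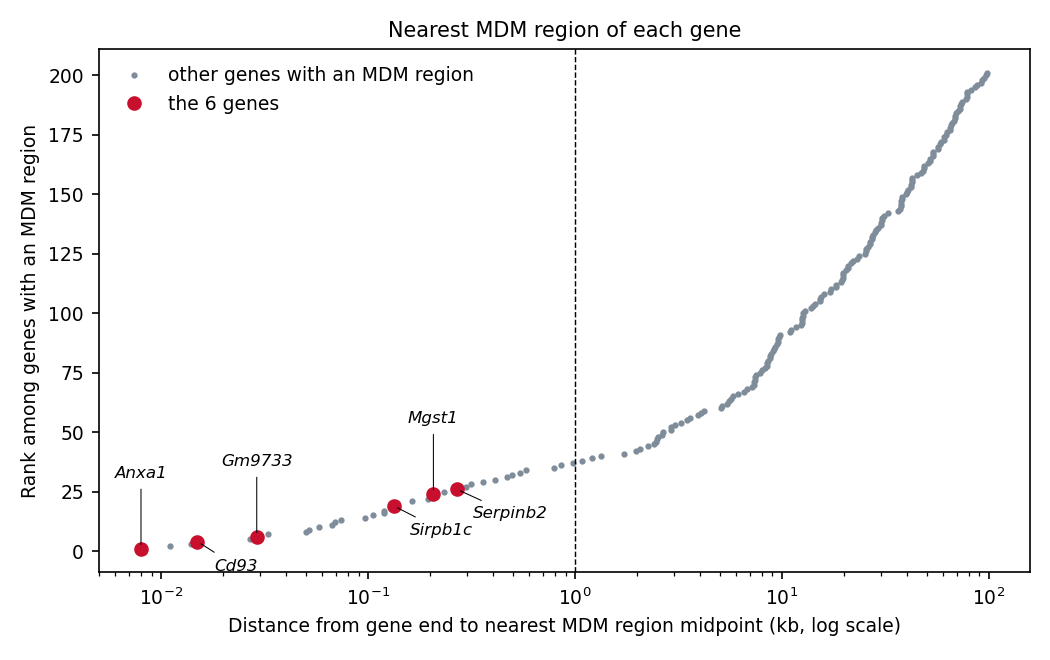
Each point is 1 of the 201 protein-coding genes with an assigned MDM region, placed by the distance from its nearest end to the nearest MDM midpoint (kb, log scale) and by its rank; the dashed line is 1 kb. The 6 genes (red) lie between 0.008 kb for Anxa1 and 0.268 kb for Serpinb2, at ranks 1 to 26.

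No YSM region lay within 500 kb of any of the 6 genes. The nearest YSM midpoint was 1.49 Mb from Cd93, 1.7 Mb from Gm9733, 2.2 Mb from Sirpb1c, 3.39 Mb from Anxa1, 3.96 Mb from Mgst1 and 10.2 Mb from Serpinb2. The median over the 6 was 2.79 Mb, beside 2.01 Mb for all 201 genes with an MDM region and 1.79 Mb for 21631 protein-coding genes on chromosomes that hold a YSM region. An empty flank of 500 kb was therefore common for a gene of this genome and is given only as the setting of these loci. The genes differed more in how many MDM regions surrounded them. Within 500 kb, Anxa1 had 1 and Mgst1 2, in each case their own, while Cd93 and Gm9733 had 3, Sirpb1c 4 and Serpinb2 8.

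Cd93 shared its neighbourhood with Thbd, which encodes thrombomodulin, a thrombin receptor of the same group of C-type lectin-like proteins. Thbd is the next protein-coding gene below Cd93, across a gap of 28.5 kb. It had 2 MDM regions, chr2:148406672-148408672 centred 516 bp inside its upper end and chr2:148407199-148409199 centred 11 bp beyond it, which overlapped by 1474 bp. Cd93 and Thbd thus each had an MDM region centred almost on the upper end, at 15 and 11 bp, and no MDM region lay in the 33.35 kb between these 2 sites. The next gene above Cd93, Nxt1, had no region of either list. Of the 10 genes fixed for Cd93, its relatives and the complement component C1q, Cd93 and Thbd had MDM regions and the other 8, Clec14a and Cd248 among them, had none in either list. The shares over all protein-coding genes were 0.918% for MDM and 1.82% for YSM regions, and Cd93 was chosen for its region.

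The SIRP-beta genes lie in a row of 5 on chromosome 3, spanning 711 kb from Gm9733 through Sirpb1a, Sirpb1b and Sirpb1c to Gm5150. MDM regions stood at the upper end of 3 of them. Sirpb1b had 1, chr3:15574081-15576081, centred 14 bp beyond the gene and 16 bp upstream of its listed start. Gm9733 and Sirpb1c had those given above, and Sirpb1a and Gm5150 had no region of either list. Gm5150 and the 3 Sirpb1 genes are transcribed towards lower coordinates, so for Sirpb1b and Sirpb1c the upper end is where transcription begins. No MDM region lay between these ends, the gaps being 240.8 and 271.32 kb. Among the 11 genes fixed for this family and its partners, these 3 had MDM regions and 0 had YSM regions. The shares over all protein-coding genes were 0.918% for MDM and 1.82% for YSM regions. Gm9733 and Sirpb1c were chosen for their MDM regions. Genes of this list without any region included Sirpa, the inhibitory relative, its ligand Cd47, the adaptor genes Tyrobp and Hcst, and the phosphatase genes Ptpn6 and Ptpn11.

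**Figure D3:**
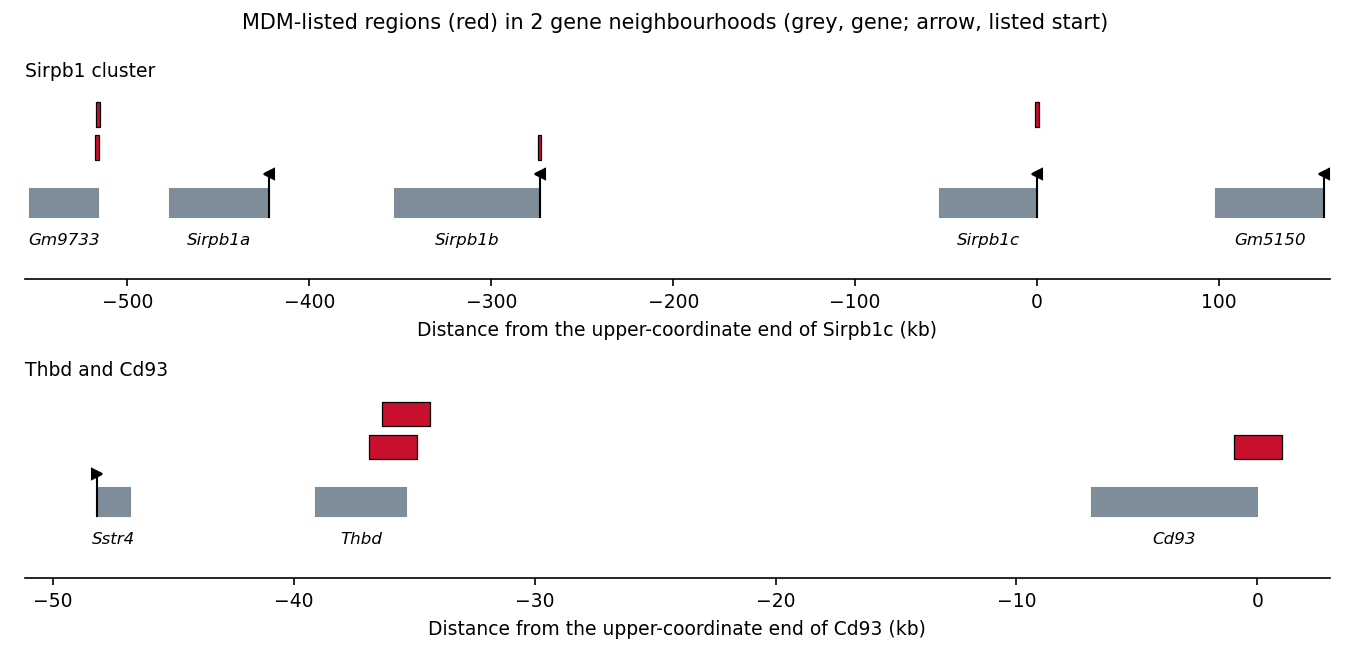
MDM regions (red boxes) along the row of SIRP-beta genes (upper panel) and at Thbd and Cd93 (lower panel), with genes in grey and listed starts as arrows, in kb from the upper end of Sirpb1c or Cd93; the height of a box has no meaning. Regions sit at the upper end of Gm9733, Sirpb1b and Sirpb1c, and of Thbd and Cd93, and none sits at Sirpb1a, Gm5150 or Sstr4.

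The sequences before the starts of Sirpb1a, Sirpb1b and Sirpb1c are shown because the 3 genes are close copies and only 2 of them had a region. Capitals mark the longest stretch of the 250 printed bases that is identical between Sirpb1b and Sirpb1c (54 bases in each), and in Sirpb1a the longest stretch identical to Sirpb1c (26 bases). The stretches are chr3:15426428-15426677, chr3:15575066-15575315 and chr3:15848488-15848737, all on the minus strand.
Sirpb1a: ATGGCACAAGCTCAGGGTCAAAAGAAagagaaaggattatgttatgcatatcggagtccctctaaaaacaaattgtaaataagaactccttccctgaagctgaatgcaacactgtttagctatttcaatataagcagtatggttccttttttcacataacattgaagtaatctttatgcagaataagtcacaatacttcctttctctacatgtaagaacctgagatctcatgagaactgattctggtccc
Sirpb1b: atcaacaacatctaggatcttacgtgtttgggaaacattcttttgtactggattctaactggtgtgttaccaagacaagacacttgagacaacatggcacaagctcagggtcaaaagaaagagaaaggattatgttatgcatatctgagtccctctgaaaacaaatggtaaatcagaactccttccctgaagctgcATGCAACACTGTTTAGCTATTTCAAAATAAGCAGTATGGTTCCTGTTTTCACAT
Sirpb1c: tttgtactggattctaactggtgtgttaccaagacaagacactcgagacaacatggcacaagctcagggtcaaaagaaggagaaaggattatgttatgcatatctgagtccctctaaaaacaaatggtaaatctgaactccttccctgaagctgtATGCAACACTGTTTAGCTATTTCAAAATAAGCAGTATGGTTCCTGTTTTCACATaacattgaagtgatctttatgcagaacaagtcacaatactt

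The windows of 300 bases were aligned locally, so each percentage covers only the best-matching stretch and not the whole window. Sirpb1b and Sirpb1c matched at 254 of 259 aligned positions (98.1%), with a run of 104 identical bases. Sirpb1a matched Sirpb1c at 237 of 248 positions (95.6%) and Sirpb1b at 198 of 207 (95.7%), with longest identical runs of 38 and 52 bases. Reads were 50 bases long from each end of a fragment, so a read inside the run of 104 bases would match Sirpb1b and Sirpb1c alike. The run of 52 bases shared by Sirpb1a and Sirpb1b is also longer than a read. How the authors treated reads with more than one match is not given in the sources used here, and their part in the regions at Sirpb1b and Sirpb1c was not tested. The aligned windows cover a small part of each region, and Gm9733, which has no promoter entry, was not compared.

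Regions of the MDM list were spread along the Serpinb genes of chromosome 1, clade B serine protease inhibitors that act inside cells and at the cell surface. From 107389054 to 107526868 the list held 8 regions in 137.8 kb, with no overlap among them. Serpinb11, an inhibitor-like gene of the family, was assigned 2, the nearer at chr1:107389054-107391054 and 9.579 kb above its upper end. Serpinb7, known for its loss in an inherited disorder of skin keratinisation, was assigned 2, of which chr1:107446535-107448535 was inside the gene, 24.85 kb downstream of its start. Serpinb2 had the 4 described. The 2 genes above it, Serpinb10 and Serpinb8, and Serpinb3c below Serpinb11 had no region of either list. The region of this run closest to a listed start was the one inside Serpinb2, at 2.24 kb. It was the only window of 150 kb in the MDM list with more than 6 regions, and 7 separate windows of the YSM list, which is longer, held 8 or more. Of the 27 Serpinb genes fixed as the family, these 3 neighbours had MDM regions, and 0 had YSM regions. The shares over all protein-coding genes were 0.918% for MDM and 1.82% for YSM regions. Serpinb2 was chosen for its MDM regions and the 3 genes lie in 1 run, so the count carries no test.

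**Figure D4:**
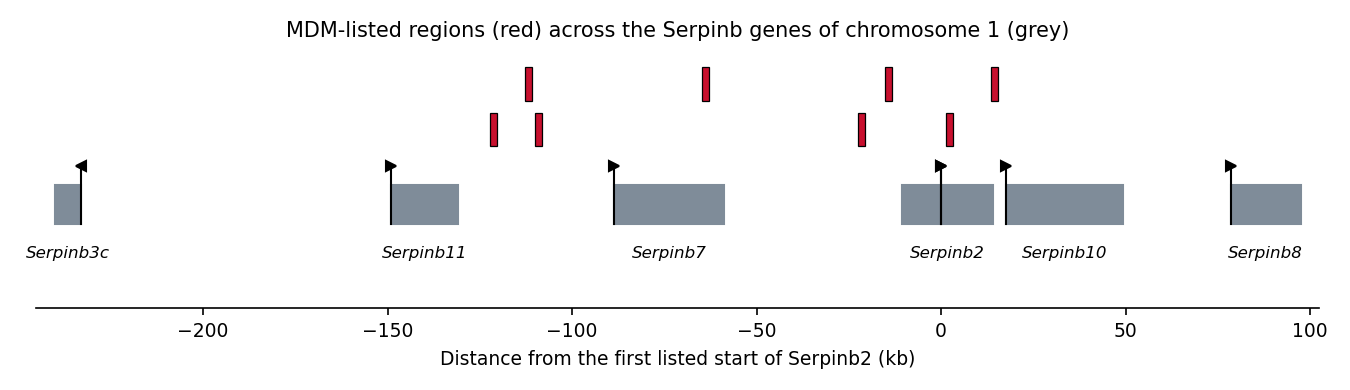
The 8 MDM regions (red boxes) among 6 Serpinb genes of chromosome 1 (grey bars), in kb from the first listed start of Serpinb2; arrows mark listed starts and the direction of transcription, and the height of a box has no meaning. The regions lie between Serpinb11 and Serpinb10, with 4 at Serpinb2, and none stands on an arrow.

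Mgst1 and Anxa1 stood alone in their neighbourhoods. The genes flanking Mgst1, the transporter gene Slc15a5 at 60.6 kb and the transcription cofactor gene Lmo3 at 206.2 kb, had no region of either list. The same held for those flanking Anxa1, the nuclear receptor gene Rorb at 1262.2 kb and the retinaldehyde dehydrogenase gene Aldh1a1 at 101.9 kb. Among 19 genes of glutathione and eicosanoid enzymes, Mgst1 was the only one with a region in either list; its relatives Mgst2, Mgst3, Ltc4s, Alox5ap and Ptges had none. Among 12 annexin genes, Anxa1 was likewise the only one, and none of the 7 formyl peptide receptor genes had a region. Of 13 genes of the plasminogen system, Serpinb2 and Thbd had MDM regions, whereas the urokinase gene Plau and its receptor gene Plaur had none. Most genes of any kind had none, as 0.918% of all protein-coding genes had an assigned MDM region and 1.82% a YSM region. Mgst1, Anxa1 and Serpinb2 were chosen for their MDM regions, so these counts carry no test.

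The 15 motifs were searched as exact letters on both strands of the windows of 300 bases. They were GAGGAAGT for PU.1, CCGGAAG for the ETS core, TTNCNNAA for C/EBP factors, TGANTCA for AP-1, TGACGTCA for CRE-binding factors, GAAANNGAA for IRF factors, TGTGGT for RUNX, TGCTGAC for MAF, GGGCGG for the GC box of SP and KLF factors, CCACCC for the CACCC box, CACGTG for the E-box, TGACNNNGC for the antioxidant response element, GTCTAGAC for SMAD, TATAAA for the TATA box and CCAAT for the CCAAT box. No match to one motif overlapped a match to another in the windows described. A match is a description of letters and shows no binding.

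C/EBP letters were the only ones found at all 4 genes with a window, and 40.7% of all 32851 windows hold them. They were in 6 of the 6 windows of these genes, but the 2 windows of Serpinb2 overlap and share the match TTTCTTAA. The 6 windows are therefore not independent. C/EBP factors are regulators of myeloid genes. Mgst1 held TTTCCAAA and TTTGGCAA before its first start, Anxa1 TTTTGCAA at position -143, Sirpb1c TTTCAAAA at position -76 and Serpinb2 TTGCTAAA and TTTCTTAA, positions being counted back from the start. Mgst1 also had GCACGGTCA at -56, a match to the antioxidant response element that 12.4% of windows hold, and a GC box at -10 (35.7% of windows). The TATA box stood at -32 in Anxa1 and at -29 in Serpinb2, and 13.6% of windows hold it. Serpinb2 alone of the 4 had an AP-1 match, TGAATCA at -94 (7.81% of windows). The IRF letters GAAAGAGAA were present at Sirpb1a and Sirpb1b (8.56% of windows) and not at Sirpb1c. The letters searched for PU.1 and RUNX were in none of these windows.

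Base composition differed among the genes. The first window of Mgst1 was 53.7% G and C with 13 CpG dinucleotides, and its second window 43.0% with 1. The median over all windows was 52.7% and 7 CpG. Anxa1 had 47.3% and 3 CpG, Sirpb1c 39.0% and 2, and the first window of Serpinb2 35.3% and 1. Sirpb1c and Serpinb2 thus lay in the lowest 10% of windows for G and C content, at percentiles 8.4 and 4.0.

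Other genes of monocytes and engrafted macrophages show how far the label reaches. Of 40 monocyte genes, 5 had MDM regions and 0 had YSM regions: Mgst1, Gm9733, Sirpb1b, Sirpb1c and Serpinb2. Of 40 genes of macrophages that engraft in the brain, 4 had MDM regions and 0 had YSM regions: Mgst1, Anxa1, Cd93 and the haemoglobin scavenger receptor gene Cd163, whose region chr6:124320819-124322819 lay inside the gene, 8.71 kb from an end. These lists were written with the 6 genes in view, so their counts are not independent of them; without them, Sirpb1b and Cd163 remain. Defining genes of classical monocytes such as Ly6c2, Ccr2, Chil3 and Plac8 had no region in either list, and neither did Ms4a7 or Clec12a, genes known from engrafted macrophages. Of 29 microglia identity genes in the gene table, 7 had YSM regions and 1, Pmepa1, had an MDM region. Over all 21887 protein-coding genes, 0.918% had an assigned MDM region and 1.82% a YSM region. The microglia list too was written with earlier results of these data known, so the counts carry no test.

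Markers of other cells were counted in the same way, and the same shares over all protein-coding genes apply. Among 14 genes of border-associated macrophages, Cd163, which is on the engrafted macrophage list too, had the only region, an MDM region. Among 15 neutrophil genes, Retnlg had an MDM region, chr16:48864214-48866214, 7.39 kb upstream of its start. The listed genes of B cells (10), T and NK cells (12) and mast cells and basophils (10) had none in either list. Those of endothelial cells, astrocytes, oligodendrocytes and neurons had 0 MDM regions, and 1, 1, 2 and 3 of them had YSM regions. These marker lists are short, and a count of 0 covers only the genes on them. Regions to which no protein-coding gene was assigned cannot enter any of these counts. Among such regions were runs of 6 MDM regions at chr12:115118499-115194771 and at chr12:115756912-115875266, and which cells these came from was not tested. Cd93, a gene of endothelial cells too, and its neighbour Thbd had MDM regions but are not on the endothelial list. Klrk1 and Trat1, with 2 MDM regions each, are not on the list of T and NK cells. Whether other cells contributed to the regions of the 6 genes was not tested.

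**Figure D5:**
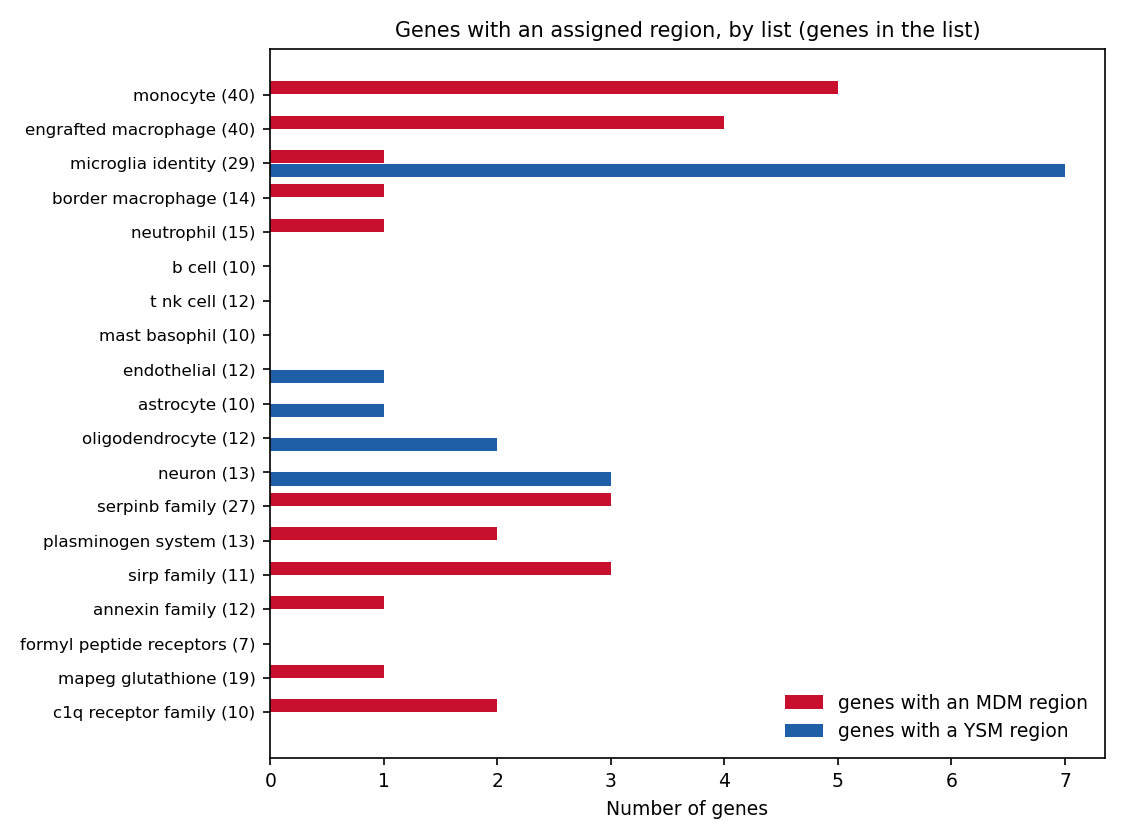
Number of genes with at least 1 assigned MDM region (red) or YSM region (blue) in each of 19 gene lists, with the number of genes found in the gene table in brackets. The monocyte list has 5 MDM and 0 YSM genes, and the microglia identity list 1 and 7; the lists were written with earlier results known.

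The genes most like these 6, taken as other genes with an MDM region centred within 1 kb of an end and ordered by their number of regions and then by the smaller distance, were led by Dach1, a transcription cofactor gene, with 8 regions. Fam110b and the kinase gene Lrrk2 had 4 each, and Tmtc1 and the phospholipase C gene Plcb4 had 3 each. Thbd, the dipeptidyl peptidase gene Dpp4, the fatty acid hydroxylase gene Cyp4f18, the ectonucleotidase gene Nt5e and the homeobox gene Hoxb4 had 2 each. Msr1 and Hs3st1 also had 2 and fell below these 10 by their larger distances of 791 and 978 bp. These counts are of single regions, and many of them overlap. After overlapping regions were joined, Lrrk2 had 4 groups, and Dach1 and Fam110b had 3 each. Tmtc1, Plcb4, Nt5e and Hoxb4 then had 2 groups each, and Thbd, Dpp4 and Cyp4f18 had 1 each. Of the 8 of the 10 with a listed start, all were centred within 1 kb of it, from 25 bp at Cyp4f18 to 750 bp at Plcb4. Cyp4f18, a neutrophil and myeloid enzyme that inactivates leukotriene B4, was closest to a start, at chr8:72008601-72010601.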

How the data were processed

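H3K27ac was profiled by CUT&Tag in 4 MDM and 4 YSM libraries. The authors deposited 1 region list per group with no header. HOMER, Picard, Bowtie2 2.2.5 and Trimmomatic 0.39 are named, without their roles, per the submitters' processing notes, with build mm10; the threshold and direction of the test behind the lists are not stated there. The deposited score, a whole number of unstated meaning, was not used. Starts were shifted by 1, so positions count from 1. Distances were measured between region midpoints and the ends of protein-coding genes in RefSeq GRCm38.p6, or listed starts where stated; regions of 1 list sharing at least 1 bp were joined. Assignment was tested on simulated data. Python 3.11.15, pandas 2.3.3 and Biopython 1.88 (local alignment) were used.

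The members, motifs and gene lists were chosen with earlier results of these data known. Named genes were the 6, their flanking protein-coding genes, members of the monocyte, engrafted macrophage and family lists with a region, and the 10 other genes with most MDM regions and one within 1 kb of an end; other names were chosen after their values were seen, and so was the alignment of the Sirpb1 windows. Of 292 listed genes, 2 had no protein-coding entry. A planned comparison of proteins was not run. Nothing was tested between groups, and the 2 libraries named k27me3, for which the series text names an H3K4me3 antibody instead, were not analysed here.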

Additional observations from a re-analysis of the deposited data

How the results depend on the processing

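No paired analysis was possible because each list pools its libraries, which also means that no library could be left out and that depth is unknown. The 6 genes had MDM regions and 0 YSM regions with a limit of 10 kb (10 regions), no limit, genes of all types, and, for the regions, nearest gene bodies (11 each). All 6 had a region near an end with windows of 500 bp and 5 kb and from region edges. Only 3 did with listed starts alone, because Cd93 and Gm9733 have no listed start and Serpinb2 lies farther. The median distance of 81 bp became 128 bp from listed starts and 0 from region edges, since each nearest region covers the gene end. Groups numbered 10 when an overlap of at least 50% of the width was asked. The 20 motif matches at the genes' windows, 17 distinct sites since the 2 windows of Serpinb2 overlap, became 13 on the gene's strand alone and stayed 20 in the 250 bases before the start. With a limit of 10 kb, chosen after seeing the data, 0 microglia identity genes had an MDM region instead of 1; the other counts of the 6 gene lists tried moved by at most 1. A flank of 1 Mb, also chosen later, still held 0 YSM regions.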

Other observations

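A listed start shows which end of a gene a region lies at. Of 33 MDM regions within 1 kb of an end of such a gene, 30 (90.9%) were also within 1 kb of a listed start of that gene, and of 68 YSM regions 49 (72.1%) were; the difference was not tested, and neighbouring regions are not independent. The 3 MDM exceptions were at Serpinb2, at Ccdc85c and at Klk1b21, genes picked out after their values were seen. The region of Serpinb2 lay 268 bp from the 3′ end of that gene, 14358 bp from the nearer of its own listed starts and 3135 bp from the listed start of Serpinb10. That of Ccdc85c lay 472 bp from an end and 71322 bp from the nearest listed start of its own gene.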
